A study of Mus musculus with 6 samples.

Results

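The respiratory chain genes described here are all rows of the deposited gene table whose symbol begins with mt-, Nduf, Uqcr, Cox4 to Cox8 or Atp5, or is Sdha, Sdhb, Sdhc or Sdhd. They were 119 of the 22354 genes listed, 29 from the mitochondrial genome and 90 from the nucleus, and the rule uses their names alone. Colon RNA was sequenced from 3 mice named Smad4ΔLrig1 in the labels (libraries titled KO) and 3 named SMAD4+ control (titled WT). All 6 were of the strain C57BL/6J and were dissected 1 month after tamoxifen, which the controls had received as well. Crypts were released with the chelator EDTA, and the layer beneath was scraped off the muscle. The driver of the deletion, the deleted exons, and the age and sex of the mice are not given in the sources used here.

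Library totals were 21194104, 21344315 and 22821486 counts in KO replicates 1, 2 and 3, and 20852408, 18918880 and 25867997 counts in WT replicates 1, 2 and 3. Smad4, the gene deleted, stood at 92.0, 102 and 59.0 CPM (counts scaled to a common library size) in KO and at 132, 153 and 111 CPM in WT. All KO libraries were thus below all WT libraries, at 64.0% of the WT mean, with an adjusted p of 0.338 in the edgeR quasi-likelihood test. Although the tissue is labelled stroma, 10 epithelial markers (such as Epcam and Krt8) summed to 30034 to 31927 CPM in KO and 28049 to 36311 CPM in WT. In contrast, 7 fibroblast markers (such as Col1a1) summed to only 17.8 to 25.5 CPM in KO and 10.05 to 14.0 CPM in WT. WT replicates 1 and 3 stood apart from each other on the nuclear genes, so medians over the nuclear genes are given with and without them. These are bulk samples, in which fewer cells of a type and less RNA per cell cannot be told apart.

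The respiratory chain passes electrons from NADH and succinate through complexes I, II, III and IV to oxygen, and the proton gradient it builds drives ATP synthesis by complex V. Complexes I, III, IV and V mix subunits from the mitochondrial genome with subunits from the nucleus, and complex II is wholly nuclear. The mitochondrial genome is read as long transcripts from each strand, which are cut into messenger RNAs, rRNAs and tRNAs, so its genes are not independent of one another. In the colon, absorptive cells of the epithelium are rich in mitochondria.

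Mitochondrially encoded transcripts made up a smaller share of the counts in KO. They took 2.06%, 2.01% and 1.77% of the counts in KO replicates 1, 2 and 3, and 2.64%, 2.64% and 2.999% in WT replicates 1, 2 and 3. The means were 1.95% ± 0.155 in KO and 2.76% ± 0.207 in WT (SD, n = 3 each), so KO stood at 70.6% of WT and the groups did not overlap. The 90 nuclear genes took 2.07%, 1.995% and 1.98% in KO, and 1.93%, 2.14% and 2.21% in WT. Their means were 2.01% ± 0.0456 in KO and 2.09% ± 0.147 in WT, and here the groups overlapped, with WT replicate 1 the lowest library of all. The ratio of mitochondrial to nuclear counts within a library, from which scaling cancels, was 0.998, 1.01 and 0.894 in KO and 1.37, 1.23 and 1.36 in WT. All 3 KO ratios lay below all 3 WT ratios. With 3 libraries against 3, an exact two-sided permutation test cannot give a p below 0.1.

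**Figure D1:**
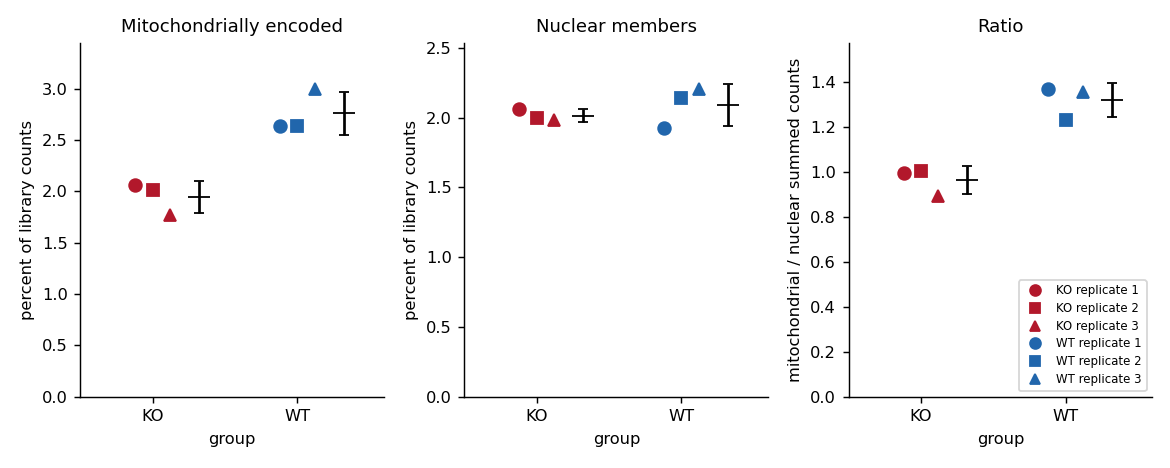
Share of library counts (%) in the 29 mitochondrially encoded genes (left) and the 90 nuclear genes (middle), and the ratio of the 2 sums (right), with 1 point per library, KO left of WT, and bars for the mean ± SD. The KO shares of mitochondrial counts (1.77% to 2.06%) lie below those of WT (2.64% to 2.999%), while the nuclear shares overlap.

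The mitochondrial messenger RNAs that were well counted were lower in every KO library than in any WT library. Of the 13 messenger RNAs, 7 passed the filter on low counts: mt-Nd1, mt-Nd2, mt-Nd4, mt-Nd5 and mt-Nd6 (complex I), mt-Cytb (complex III) and mt-Co1 (complex IV). Their KO means were 66.3% to 73.2% of WT, with log2 fold changes (KO over WT) of -0.59 to -0.45 and a median of -0.51, against a median of -0.01 over all 14180 tested genes. Groups that do not overlap, with KO lower, were found for 6.52% of all tested genes. With the quasi-likelihood test of edgeR, adjusted over all tested genes, none of the 7 passed 0.05 (adjusted p 0.0958 to 0.233). That test called no gene of the table (0.0%). At an unadjusted p under 0.05, all 7 were lower, as were 3.35% of all genes. With DESeq2 all 7 fell, with adjusted p-values of 1.01e-07 to 0.00599, where 0.331% of all genes were called lower. The edgeR exact test called the 7 lower as well, and again 0.331% of all genes. The authors' deposited table gives these 7 adjusted p-values under 0.05, where 0.489% of its genes are called lower. The call thus depended on the tool.

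mt-Nd6, a complex I subunit and the only messenger RNA of the light strand (chrM:13552-14070, minus strand, mm10), had the largest difference of the 7. It stood at 705, 729 and 704 CPM in KO and 995, 1078 and 1152 CPM in WT. The log2 fold change was -0.59 ± 0.09 (SE; edgeR adjusted p 0.0958, DESeq2 adjusted p 1.01e-07). The gap between the highest KO and the lowest WT library was wide compared with the spread within KO.

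mt-Nd5 (chrM:11742-13565, plus strand), whose end overlaps that of mt-Nd6, encodes a proton-pumping subunit of complex I. It measured 1754, 1918 and 1740.0 CPM in KO and 2533, 2603 and 2879 CPM in WT, a log2 fold change of -0.57 ± 0.10 (edgeR adjusted p 0.101, DESeq2 1.72e-06). Reads in the overlap cannot be assigned to a strand here. mt-Nd2, another membrane subunit of complex I (chrM:3914-4951), measured 1264, 1250.2 and 1178 CPM in KO and 1711, 1703 and 1841 CPM in WT (log2 fold change -0.51 ± 0.09, edgeR adjusted p 0.0989). For both genes the 3 KO values stayed close together, well below the lowest WT value.

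mt-Co1 encodes the catalytic subunit of complex IV, where oxygen is reduced (chrM:5328-6872). It was the most abundant of the 119 by CPM, at 7211, 7249.8 and 6099 CPM in KO and 8595, 9916 and 11555 CPM in WT. Its log2 fold change was -0.55 ± 0.15 (edgeR adjusted p 0.233, DESeq2 0.00599), with the largest spread of the 7, since WT replicate 3 stood high and KO replicate 3 low. mt-Cytb, the cytochrome b of complex III (chrM:14145-15288), measured 3941, 4047 and 3485 CPM in KO and 5209, 4972 and 5761 CPM in WT (log2 fold change -0.47 ± 0.12, edgeR adjusted p 0.186).

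mt-Nd1 (chrM:2751-3707), which helps to form the ubiquinone site of complex I, measured 2984, 3029 and 2860.1 CPM in KO and 3749.5, 3929 and 4436 CPM in WT. Its log2 fold change of -0.45 ± 0.11 was the smallest of the 7 (edgeR adjusted p 0.177, DESeq2 6.42e-04). mt-Nd4 (chrM:10167-11544), a proton-pumping subunit, measured 1291, 1274 and 1125 CPM in KO and 1634, 1598 and 1875 CPM in WT (log2 fold change -0.47 ± 0.11, edgeR adjusted p 0.161). Counts of messenger RNAs of complexes I, III and IV were thus lower in KO. A fall on both strands cannot be read from these counts, as their strand setting is not given. Their log2 fold changes spanned -0.59 to -0.45 with standard errors of 0.09 to 0.15. Differences among the 7 in their change were not tested, and all come from the same 6 libraries.

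**Figure D2:**
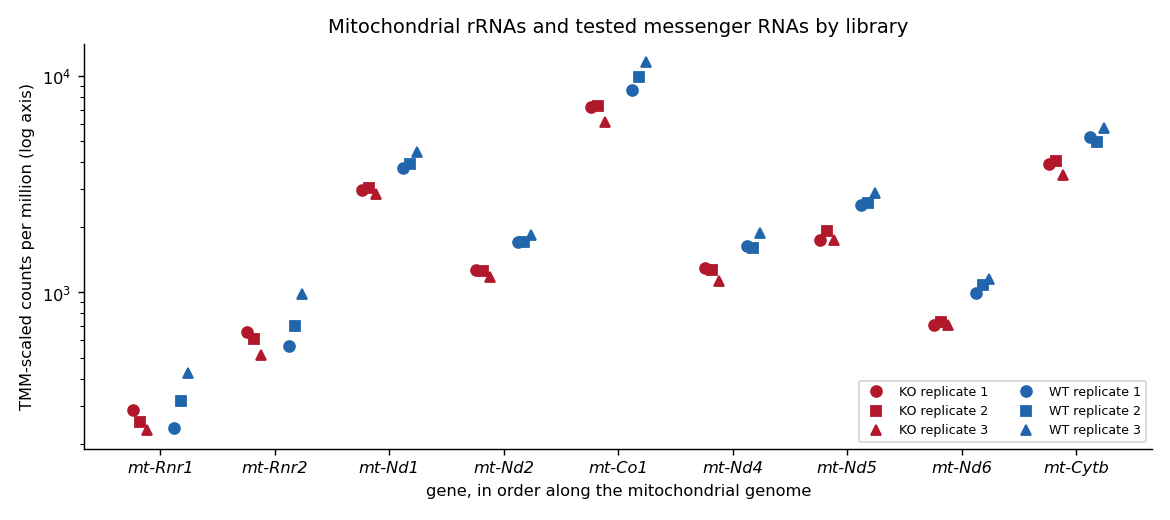
TMM-scaled CPM (log axis) of the 2 mitochondrial rRNAs and the 7 tested messenger RNAs, in order along the mitochondrial genome, with 1 symbol per library and KO left of WT. For each of the 7 messenger RNAs the 3 KO points lie below the 3 WT points, while for the rRNAs they overlap.

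Levels per length can be set beside each other. Per kilobase, mt-Co1 stood at 4436 CPM in KO and 6487 in WT, mt-Cytb at 3343 in KO and 4645 in WT, and mt-Nd1 at 3091 in KO and 4219.8 in WT. mt-Nd6, mt-Nd2, mt-Nd5 and mt-Nd4 followed, with 1373, 1186, 989 and 892 CPM per kilobase in KO and 2071, 1687, 1465 and 1235 in WT. The order was the same in both groups. mt-Co1 and mt-Nd4 share much of their sequence with copies elsewhere, described below. Per kilobase of positions where a 51-base window starts that is found in no annotated transcript elsewhere, mt-Nd4 stood at 2449.9 CPM in KO and 3391 in WT, above mt-Nd6 with 1519.9 in KO and 2292 in WT, so its place in the order depends on how length is counted.

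The ribosomal RNAs of the mitochondrion, which form its own ribosome, did not separate the groups. mt-Rnr1, of the small subunit, measured 285, 252 and 231 CPM in KO and 236, 314 and 423 CPM in WT. mt-Rnr2, of the large subunit, measured 654, 612 and 512 CPM in KO and 566, 701 and 984 CPM in WT. WT replicate 1 lay among the KO libraries for both, and WT replicate 3 stood highest. Their log2 fold changes were both -0.34, with standard errors of 0.20 (edgeR adjusted p 0.755 for mt-Rnr1 and 0.758 for mt-Rnr2). Without WT replicate 3 the values were -0.11 for mt-Rnr1 and -0.10 for mt-Rnr2, and without WT replicate 1 they were -0.52 and -0.50. The 7 messenger RNAs ranged from -0.54 to -0.38 without WT replicate 3 and from -0.64 to -0.48 without WT replicate 1. Whether rRNAs and messenger RNAs differ in their change was not tested.

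The tRNAs, which carry amino acids to the mitochondrial ribosome, were counted thinly. Of 14 listed, 6 passed the filter. mt-Tc, the best counted of them, had 9.34, 9.50 and 9.06 CPM in KO and 11.9, 13.2 and 14.5 CPM in WT, a log2 fold change of -0.51 ± 0.12 (edgeR adjusted p 0.162, and 0.0117 in the authors' deposited table). mt-Tl1 had 0.920, 0.665 and 0.888 CPM in KO and 1.61, 1.93 and 1.63 CPM in WT (log2 fold change -1.05 ± 0.25, edgeR adjusted p 0.161), and the exact test called it lower. mt-Ti had 6, 8 and 5 counts in KO and 10, 13 and 15 in WT, so it passed the filter through its WT counts. mt-Te was thinly counted as well, with 13, 11 and 9 counts in KO and 16, 13 and 19 in WT. The 6 tRNAs stay among the 97 tested members and in the plot of fold changes by class. How many of the 6 were lower in KO is not used as a result. The remaining 8 tRNAs had 2 to 54 counts over the 6 libraries.

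The other 6 messenger RNAs were nearly uncounted in both groups, although they lie between mt-Co1 with 1108432 counts and mt-Nd4 with 192595. Summed over the 6 libraries, mt-Co2 and mt-Co3 (complex IV) had 8 and 23 counts, mt-Atp8 and mt-Atp6 (complex V) 3 and 31, and mt-Nd3 and mt-Nd4l (complex I) 3 and 1. They form one unbroken stretch of the mitochondrial genome, from chrM:7013 to chrM:10173. Copies of these genes (none annotated for mt-Atp8) lie in the nuclear genome on chromosome 1, minus strand, where GENCODE M21 (mm10) annotates a row of pseudogenes from position 24611535 to position 24616197. Of all 51-base windows, the length of the reads, 100%, 99.5%, 99.9%, 98.0% and 98.8% of those in mt-Co2, mt-Atp6, mt-Co3, mt-Nd3 and mt-Nd4l occur identically in an annotated transcript elsewhere. For mt-Atp8 that share was 0%, but the search covered annotated transcripts only, so a copy outside them would not be found. The flanking genes share in part, 50.6% for mt-Co1 and 62.2% for mt-Nd4, while mt-Nd1, mt-Nd6, mt-Cytb and mt-Rnr1 share none. The submitters' text gives the share of reads mapped to a unique place, but the sources used here do not say how reads with several places were counted, and the part of such reads in these low counts was not tested.

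The opening 60 bases of mt-Co3 (chrM:8607-9390, plus strand) and of its copy Gm28437 (chr1:24613189-24613971, minus strand) are the same, as are all 783 aligned bases. The copy Gm29216 (chr1:24615706-24616197, minus strand) matches the end of mt-Co1 and differs at 6 of 492 bases. Its opening 60 bases are set beside bases 1054 to 1113 of mt-Co1, with differing bases in capitals. All are 5′ to 3′, from GENCODE M21 transcripts (mm10).

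mt-Co3: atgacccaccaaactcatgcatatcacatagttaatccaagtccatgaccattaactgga
Gm28437: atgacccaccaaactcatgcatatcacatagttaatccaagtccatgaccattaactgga
mt-Co1: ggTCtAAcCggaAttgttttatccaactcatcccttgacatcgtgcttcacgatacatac
Gm29216: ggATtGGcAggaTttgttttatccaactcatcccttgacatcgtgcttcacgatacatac

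**Figure D3:**
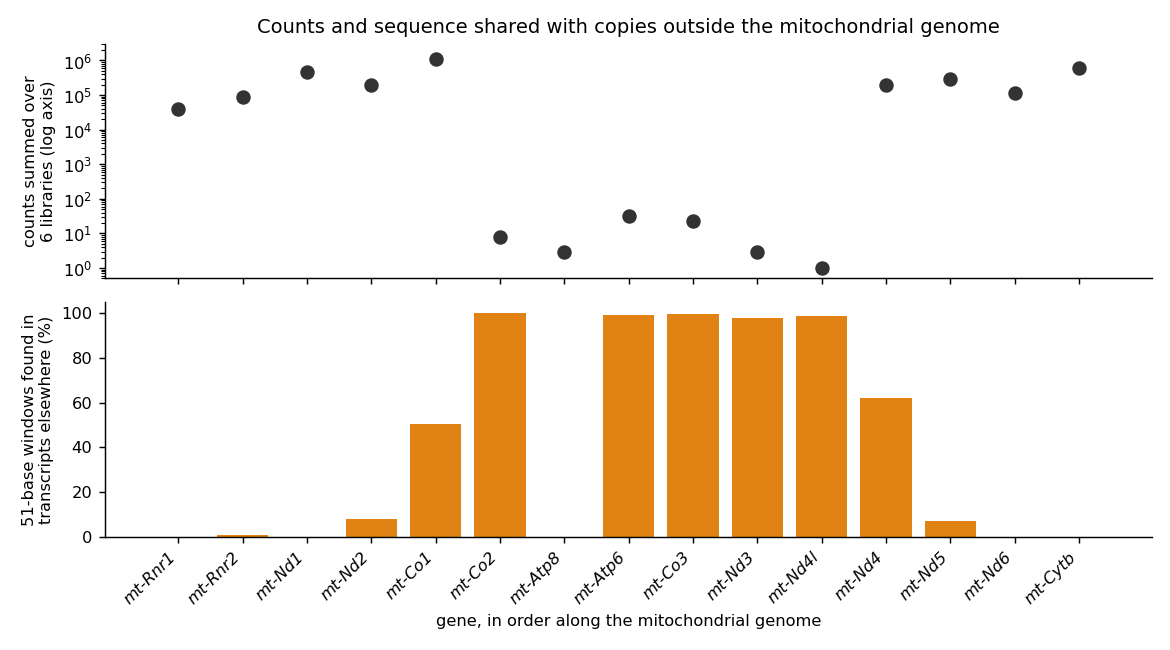
Counts summed over the 6 libraries (upper panel, log axis) and the share of 51-base windows found in annotated transcripts elsewhere (lower panel, %), for the 13 messenger RNAs and 2 rRNAs in order along the mitochondrial genome. The stretch from mt-Co2 to mt-Nd4l has 1 to 31 counts per gene, and its genes share 98.0% to 100% of their windows, except mt-Atp8 with 0%, where a copy outside annotated transcripts would not be found.

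The difference was nearly as large without the partly shared genes. With every gene left out that shares over 10% of its windows, the log2 ratio of mitochondrial to nuclear counts was -0.43 (KO minus WT), against -0.45 with all. mt-Nd6, mt-Cytb and mt-Nd1, which share none, were at 66.3%, 72.0% and 73.2% of WT.

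The nuclear genes showed a smaller difference between the groups than the mitochondrial ones. They were grouped into complexes by name alone. A gene such as Ndufa4 or Cox7a2l thus need not be a subunit of the complex it is placed in. Of the 90, 4 are Ndufaf assembly factors, 2 are pseudogenes and 3 are other name matches (Cox4nb, Atp5s and Atp5sl). Over the 73 tested genes classed by name as structural subunits, with tissue-restricted forms left out, the median log2 fold change was -0.07. Of 90 nuclear genes 82 were tested, with a median log2 fold change of -0.08 and a range of -0.67 to 0.02, and 51 lay within 0.1 of 0. None passed with the edgeR quasi-likelihood test or with DESeq2. At an unadjusted p under 0.05, 2 of the 82 were lower (Cox6b2 and Cox7a1), as were 3.35% of all tested genes. Both are among the tissue-restricted forms left out above. In 9 genes every KO library lay below every WT library, and in none did every KO library lie above (6.52% and 6.76% of all tested genes). Fold changes were below 0 for 76 of the 82, against 53.1% of all tested genes. This last count followed single WT libraries. Without WT replicate 3 it was 46 of 82, with a median of -0.02, and without WT replicate 1 it was 81 of 82, with a median of -0.15. WT replicate 3 was the highest library for 61 of the 82 and WT replicate 1 the lowest for 54.

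**Figure D4:**
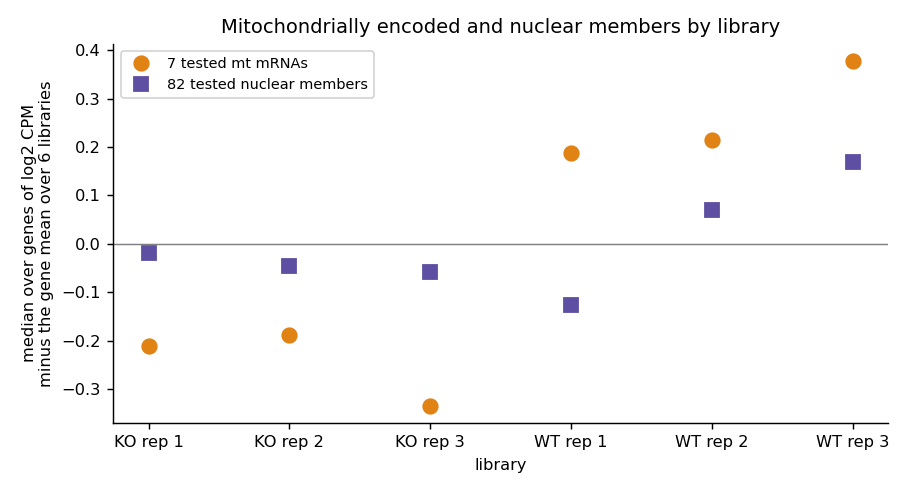
Median over genes of the log2 CPM minus the gene's mean over the 6 libraries, by library, KO libraries left of WT, for the 7 tested mitochondrial messenger RNAs (circles) and the 82 tested nuclear genes (squares). The messenger RNAs lie between -0.33 and -0.19 in KO and between 0.19 and 0.38 in WT, while the nuclear genes run from -0.06 to -0.02 in KO and from -0.13 (WT replicate 1) to 0.17 (WT replicate 3) in WT.

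The core subunits of complex I, which hold the flavin and iron-sulphur clusters that carry electrons from NADH, lay at a median log2 fold change of -0.06 over 7 genes (-0.13 without WT replicate 1, -0.02 without WT replicate 3). Ndufs1, the largest subunit, averaged 240.3 ± 10.9 CPM in KO and 251 ± 30.5 CPM in WT, and Ndufv1, which binds NADH, 235 ± 2.41 CPM in KO and 250.0 ± 27.3 CPM in WT (SD, n = 3 each). The KO values lay inside the WT range for both genes. mt-Nd1 to mt-Nd6 of the same complex, where tested, stood at 66.3% to 73.2% of WT, and the 7 nuclear core subunits at 92.0% to 100%.

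The other genes with Nduf names, outside the core subunits and the Ndufaf factors, had a median of -0.08 over 30 tested genes. All 30 had a fold change below 0, and none passed. Without WT replicate 3 the median was -0.03 with 20 of 30 below 0, and without WT replicate 1 it was -0.15. Ndufa5 measured 56.9, 56.9 and 57.5 CPM in KO and 58.0, 71.4 and 68.5 CPM in WT (log2 fold change -0.21 ± 0.09, edgeR adjusted p 0.592). Ndufb4 measured 9.66, 9.60 and 9.50 CPM in KO and 10.4, 10.6 and 12.8 CPM in WT (log2 fold change -0.24 ± 0.13, edgeR adjusted p 0.711). In 5 of the 30 (both these genes, Ndufs6, Ndufb2 and Ndufab1) no KO library reached the lowest WT library, as in 6.52% of all tested genes. For Ndufa5, Ndufb2 and Ndufab1 the highest KO and the lowest WT value were nearly the same. The 4 assembly factors named Ndufaf, which build complex I but are not part of it, had a median of -0.04. It was -0.05 without WT replicate 1 and -0.05 without WT replicate 3.

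Complex II, the succinate dehydrogenase that also serves the tricarboxylic acid cycle, had a median of -0.05 over its 4 genes. Without WT replicate 3 it was 0.01, with 1 of 4 below 0, and without WT replicate 1 it was -0.13. Sdha, its flavoprotein, measured 618, 666 and 652 CPM in KO and 596, 724 and 679 CPM in WT, so the KO libraries lay within the WT range. Sdhb, the iron-sulphur subunit, averaged 303 ± 9.85 CPM in KO and 318 ± 53.4 CPM in WT, and Sdhc, a membrane anchor, 346 ± 3.72 CPM in KO and 359.8 ± 40.2 CPM in WT.

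The 8 nuclear genes of complex III, which passes electrons from ubiquinol to cytochrome c, had a median of -0.07. Without WT replicate 3 it was 0.02, with 2 of 8 below 0, and without WT replicate 1 it was -0.19. Uqcrc2, a core protein, measured 602, 600.2 and 599 CPM in KO and 555, 670.3 and 653 CPM in WT (log2 fold change -0.06 ± 0.10). Its 3 KO values lay within the WT range. mt-Cytb, the mitochondrial partner in this complex, was at 72.0% of WT, and the 8 nuclear genes were at 91.4% to 97.9%.

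Complex IV, as grouped by name, had a median of -0.11 over 13 tested nuclear genes (-0.19 without WT replicate 1, 0.00 without WT replicate 3). Cox4i1, the ubiquitous form of subunit 4, measured 801, 743 and 742 CPM in KO and 694, 824 and 918 CPM in WT (log2 fold change -0.09 ± 0.12). The 2 complex IV genes with the smallest p were low in level. Cox6b2, known as the testis form of subunit 6b (chr7:4751792-4753094, minus strand), measured 0.552, 0.665 and 0.710 CPM in KO and 0.963, 1.07 and 1.04 CPM in WT. Its log2 fold change was -0.67 ± 0.25 (edgeR adjusted p 0.491), on 109 counts over the 6 libraries. Cox7a1, the form of subunit 7a known from heart and skeletal muscle (chr7:30184144-30186078, plus strand), measured 18.6, 19.4 and 19.6 CPM in KO and 22.0, 20.8 and 25.998 CPM in WT (log2 fold change -0.26 ± 0.11, edgeR adjusted p 0.571). In both genes the groups did not overlap.

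Complex V, the ATP synthase, had a median of -0.09 over 13 tested nuclear genes (-0.16 without WT replicate 1, -0.02 without WT replicate 3). Atp5b, the catalytic beta subunit and the most abundant nuclear gene of the set by CPM, measured 2563, 2651 and 2665 CPM in KO and 2344, 2843 and 2835 CPM in WT. The log2 fold change was -0.03 ± 0.11, and the KO libraries lay within the WT range. Atp5e, the epsilon subunit, measured 182, 161 and 176 CPM in KO and 172, 180.3 and 254 CPM in WT (log2 fold change -0.22 ± 0.15, edgeR adjusted p 0.807), with WT replicate 3 far above the others. Atp5h and Atp5o, of the stalk that holds the catalytic head, had log2 fold changes of -0.21 ± 0.10 and -0.19 ± 0.13, and their groups overlapped.

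**Figure D5:**
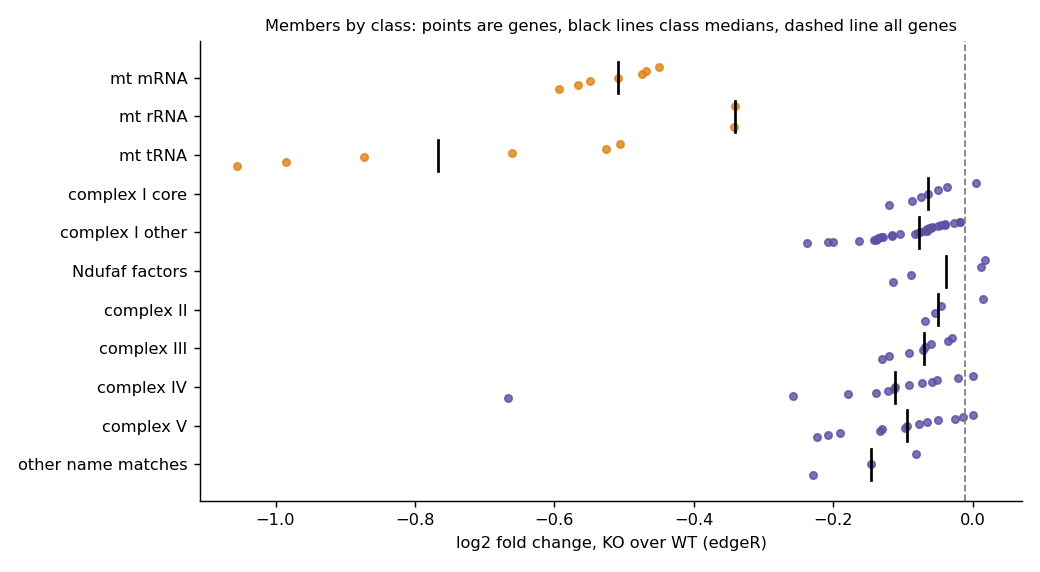
Log2 fold change (KO over WT, edgeR) of each tested gene, by class, with black lines for class medians and a dashed line for the median of all tested genes. Mitochondrial messenger RNAs lie between -0.59 and -0.45, while the medians of the nuclear genes grouped by name into complexes I to V lie between -0.11 and -0.05.

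Several subunits exist in forms that differ by tissue, and the widely expressed form dominated in both groups. Cox6a1 averaged 523 ± 29.7 CPM in KO and 542 ± 37.3 CPM in WT, and its muscle form Cox6a2 had 8 counts in all. Cox8a averaged 327 ± 3.83 CPM in KO and 344 ± 45.3 CPM in WT, and its muscle form Cox8b had 3 counts. Cox4i1 stood beside Cox4i2, the form known from lung and hypoxia, with 13 counts, and Ndufa4 (127 ± 10.8 CPM in KO, 133 ± 6.32 CPM in WT) beside Ndufa4l2 with 11. A count of 3 in a library corresponds to 0.116 to 0.159 CPM, so these minor forms were at or near the limit of detection and cannot be compared between groups. Cox7a2, the liver form of subunit 7a, averaged 235 ± 2.46 CPM in KO and 255 ± 30.8 CPM in WT. Cox7a2l averaged 64.5 ± 2.75 CPM in KO and 64.5 ± 6.61 CPM in WT, with a log2 fold change of 0.00 ± 0.09. Of the 3 genes for the same mature c subunit of the ATP synthase, Atp5g3 averaged 852 ± 22.6 CPM in KO and 911 ± 84.0 CPM in WT, Atp5g1 12.3 ± 0.918 CPM in KO and 13.4 ± 0.705 CPM in WT, and Atp5g2 had 26 counts in all.

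The low level of Atp5g1 has to be read beside a processed copy, a spliced messenger RNA pasted back into the genome. Its copy Gm10039 (chr11:100361716-100362126) had 12184 counts over the 6 libraries, against 1679 for Atp5g1 (raw counts, not scaled for length). Likewise Gm10250 (chr15:5120654-5121135) had 13000 counts against 8830 for Atp5h, Gm12251 had 6858 against 5530 for Ndufs3, and Gm12338 had 3044 against 1022 for Cox7c. Reads that span an exon junction of the parent match the copy without a gap. The windows of 51 bases over such a junction are identical in parent and copy, with the bases on either side of the junction in capitals.

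Atp5g1: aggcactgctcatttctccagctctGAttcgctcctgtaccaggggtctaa
Gm10039: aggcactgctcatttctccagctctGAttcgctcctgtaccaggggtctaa
Atp5h: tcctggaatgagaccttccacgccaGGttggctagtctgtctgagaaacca
Gm10250: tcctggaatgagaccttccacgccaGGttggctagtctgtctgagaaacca

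Reads in such shared windows cannot be assigned to parent or copy by sequence. For the copies named, they were 6.84% of the windows of Atp5g1, 18.9% of Atp5h, 15.7% of Ndufs3 and 12.1% of Cox7c. These shares are of windows over all annotated transcripts of the parent, not of reads. The levels of these genes are thus uncertain to an extent that was not tested. The copies showed no called difference either. Gm10039 averaged 90.3 ± 3.598 CPM in KO and 95.9 ± 12.1 CPM in WT, and Gm10250 95.2 ± 3.45 CPM in KO and 103 ± 12.98 CPM in WT. With the counts of all annotated copies added to the nuclear genes, the log2 share of nuclear counts differed by -0.05 between the groups, the same as without them.

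Genes that make, supply or run the respiratory chain, outside the naming rule, showed no called difference with edgeR or DESeq2. All 13 genes of the tricarboxylic acid cycle had fold changes below 0, with a median of -0.08 (-0.15 without WT replicate 1, -0.06 without WT replicate 3). Idh3g, a subunit of isocitrate dehydrogenase, measured 135, 137 and 139 CPM in KO and 143, 159 and 163 CPM in WT (log2 fold change -0.18 ± 0.08, edgeR adjusted p 0.624). Of 28 genes for mitochondrial DNA maintenance, transcription and RNA handling, 21 were below 0 and 7 above, with a median of -0.05. Without WT replicate 1, 15 were below 0, with a median of -0.04, and without WT replicate 3, 23 were below 0, with a median of -0.07. Fastk, whose short form acts on mt-Nd6 RNA, averaged 102 ± 1.84 CPM in KO and 112 ± 5.17 CPM in WT, with no overlap (log2 fold change -0.14 ± 0.07, edgeR adjusted p 0.711).

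Of 14 regulators of mitochondrial biogenesis, 10 were below 0, with a median of -0.11 (-0.05 without WT replicate 1). Without WT replicate 3, 11 were below 0, with a median of -0.09. Ppargc1a, a coactivator that drives mitochondrial gene expression, measured 28.8, 40.7 and 31.2 CPM in KO and 43.7, 38.7 and 46.8 CPM in WT. Its log2 fold change was -0.36 ± 0.14 (edgeR adjusted p 0.513), and KO replicate 2 lay above WT replicate 2. Its relative Ppargc1b measured 44.6, 40.7 and 47.0 CPM in KO and 47.6, 59.0 and 47.5 CPM in WT (log2 fold change -0.22 ± 0.11, edgeR adjusted p 0.664), with no overlap but with KO replicate 3 just under the lowest WT library. Of 34 assembly factors 23 were below 0, with a median of -0.04 (-0.08 without WT replicate 1, -0.01 without WT replicate 3). Of 15 carriers and import genes 13 were below 0, with a median of -0.05 (-0.09 without WT replicate 1). Without WT replicate 3, 12 were below 0, with a median of -0.07. Timm44, of the import motor, measured 72.9, 66.2 and 68.6 CPM in KO and 80.5, 77.7 and 79.7 CPM in WT (log2 fold change -0.20 ± 0.07, edgeR adjusted p 0.445).

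Markers of cell types that colon tissue can hold differed between libraries as well, and their part in the mitochondrial result was not tested. The summed epithelial markers overlapped between groups, with 5 of 10 fold changes below 0 and Epcam alone higher in every KO library. The 8 markers of surface colonocytes (such as Car4 and Slc26a3) summed to 5682, 6893 and 6394 CPM in KO and 4400, 10278 and 10960 CPM in WT. WT replicate 1 was thus lowest for these markers. The 6 B cell markers summed to 127, 134 and 61.0 CPM in KO and 32.6, 22.5 and 21.5 CPM in WT, and all 6 rose with DESeq2, where 1.97% of all genes were called higher. The 5 macrophage markers summed to 61.1, 47.2 and 22.3 CPM in KO and 15.6, 17.0 and 12.999 CPM in WT, and the 5 T cell markers to 30.8, 20.4 and 17.1 CPM in KO and 12.8, 15.3 and 14.8 CPM in WT. KO replicate 3 had the smallest sums of these immune markers within KO. The fibroblast sums given at the start did not overlap, and all 6 tested fibroblast markers were higher in KO by fold change. Of these, Dcn, a matrix proteoglycan, rose with DESeq2, at 4.74, 4.99 and 6.22 CPM in KO and 1.74, 1.13 and 1.36 CPM in WT. The 4 endothelial markers summed to 7.36, 6.03 and 4.75 CPM in KO and 4.04, 3.81 and 3.35 CPM in WT, also without overlap. The 8 markers of the crypt base and cycling cells summed to 743, 605 and 657 CPM in KO and 1029.9, 746 and 599 CPM in WT. Of these, Axin2, a target of Wnt signalling, fell with DESeq2 (adjusted p 0.00303), at 21.3, 29.5 and 17.2 CPM in KO and 39.7, 37.9 and 42.8 CPM in WT. The 6 smooth muscle markers summed to 15.4, 15.3 and 14.2 CPM in KO and 57.2, 14.7 and 17.3 CPM in WT.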

How the data were processed

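The 6 library columns of the deposited table hold raw read counts, whole numbers that the authors had not normalized. Per the series' design text, 51-base single-end reads were mapped to mm10 with TopHat 2.1.0 and counted with HTSeq 0.5.4p5 (with samtools 1.3.1), and the test named is edgeR 3.4.2. Per the submitters' processing notes, Bowtie 0.12.2 was used, with mm8 listed as a build beside mm10. Annotation, strand setting and the handling of reads with several places are not given in the sources used here. Per the file headers, the authors' comparison columns carry the names DESeq2 writes: a mean normalised signal, a log2 fold change, its standard error and statistic (score columns), and p-values, all as deposited. Only the adjusted p-values and the sign of the log2 fold change were used, and each use is credited.

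Counts were scaled by TMM, filtered with filterByExpr (14180 genes kept, 97 of the 119 members) and tested with the edgeR 4.0.16 quasi-likelihood F test in R 4.3.3, with group as sole term and Benjamini-Hochberg adjustment over all tested genes at 0.05. Levels are TMM-scaled CPM. Alternatives were the edgeR exact test, DESeq2 1.42.0, limma-voom (limma 3.58.1), other scalings and filters, a replicate block and the omission of each library. The code was tested on simulated counts. Detection limits of 3 counts cover counting error only, while SDs and standard errors hold the spread between libraries, which the labels name as separate mice. All member IDs matched GENCODE M21 (mm10), 3 under another symbol. Windows of 51 bases were matched exactly, on both strands, against transcripts of genes at other loci, and pseudogenes sharing at least 100 windows are called copies.

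The members and gene lists were chosen with earlier results of these data known. Genes were named by rule: the mitochondrial messenger RNAs and rRNAs, in each nuclear class the highest and the 3 with the smallest p, the isoform sets, and up to 3 per pathway list. Not every gene that this rule takes is reported here. mt-Tc, mt-Tl1 and mt-Ti, Ndufb2 and Ndufab1 (groups not overlapping), the copies and the cell type genes were picked once their values were known.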

Additional observations from a re-analysis of the deposited data

How the results depend on the processing

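The 7 tested mitochondrial messenger RNAs had fold changes below 0 under every alternative that held them, between -0.64 and -0.38 on the log2 scale. The count of called genes in the whole table, 0 in the edgeR quasi-likelihood test, was 157 with no count filter, 327 with DESeq2, 384 with the exact test and 92 at a threshold of 0.1. Leaving out each library gave 0 to 266, with 266 without KO replicate 3 and 17 without WT replicate 1. Called respiratory chain genes numbered 2 with no count filter (mt-Nd5 and mt-Nd6), 7 with DESeq2, 8 with the exact test and 2 at a threshold of 0.1. Leaving out each library gave 0 to 1, the 1 being mt-Nd6 without WT replicate 1 (edgeR adjusted p 0.0490). With limma-voom, other scalings or a mean count of at least 10 the number stayed 0. The nuclear median ran from -0.15 to -0.02 when each library was left out, over the genes tested in that fit.

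Deviations from the group mean correlated at -0.052, -0.143 and 0.143 for same-numbered libraries, and at -0.109 to 0.169 for differently numbered ones. With 3 libraries per group, such correlations cannot show whether samples were processed in pairs. With the replicate number as a block, 0 respiratory chain genes were called. Log2 fold changes were then -0.59 to -0.45 for the 7 mitochondrial messenger RNAs, with a median of -0.07 for nuclear genes.

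Signs turned for 16 named nuclear genes, none of them called. Cox7a2l was at -0.000160 with a mean count of at least 10 and at -0.000112 with the exact test. When each library was left out, log2 fold changes ran from -0.0641 to 0.0798 for Cox7a2l, -0.109 to 0.0184 for Atp5b, -0.188 to 0.00512 for Cox4i1, -0.131 to 0.0343 for Ndufs1, -0.116 to 0.0158 for Sdha, -0.139 to 0.00782 for Sdhc and -0.199 to 0.00430 for Sdhb. They ran from -0.238 to 0.0302 for Uqcr11, -0.226 to 0.0383 for Uqcrq, -0.0410 to 0.0544 for Ndufaf4, -0.146 to 0.000624 for Ndufaf1, -0.0992 to 0.00215 for Cox6a1, -0.124 to 0.0241 for Cox6b1, -0.228 to 0.0122 for Cox7b, -0.145 to 0.0359 for Cox8a and -0.0918 to 0.0100 for Ndufa4. The causes were not tested. Leaving out genes or adding copies by shared windows was chosen after seeing the data. The 6 mitochondrial messenger RNAs with 1 to 31 counts and the thinly counted tRNAs were too low to compare between groups.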
